A study of Mus musculus with 2 samples.

Results

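The troponin subunit genes are the 8 genes of the deposited table named Tnnt1, Tnnt2, Tnnt3, Tnni1, Tnni2, Tnni3, Tnnc1 and Tnnc2. They are 8 of 47644 genes. Each symbol stood on 1 row, so no choice between rows was needed. The set was chosen from the comparison of the same 2 libraries that is described here, so the difference between the libraries is a description and no test was made of it. RNA came from eyeballs of C57BL/6 mice, with 1 control library and 1 library of the oxygen-induced retinopathy (OIR) model. In this model pups breathe high oxygen, which closes retinal vessels, and the retina becomes hypoxic after the return to room air. Per the series description, hyperoxia began at day 7 and lasted 5 days, and collection of the OIR eyes followed at day 17. No separate collection day is given for the control, nor a number of eyes or animals for either library.

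Troponin is the calcium switch of striated muscle. Troponin C binds calcium, troponin I holds actin and myosin apart until calcium arrives, and troponin T ties the complex to tropomyosin on the thin filament. Each subunit is encoded by genes used mainly in slow skeletal, fast skeletal or cardiac muscle, and the I and T genes lie as neighbouring pairs in the genome. In a whole eyeball, striated muscle can come with the extraocular muscles left on the globe, while the iris and ciliary body of the mouse hold mainly smooth muscle. The cardiac gene Tnnt2 is also used in embryonic skeletal muscle. In bulk RNA, more cells of a type and more RNA per cell cannot be told apart.

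The upstream sequences of 2 members are shown because these genes contrast in the results: Tnnt2, the one troponin gene far apart between the libraries, and Tnnc1, the calcium-binding subunit that slow and cardiac muscle share. Both windows hold 250 bases before a RefSeq start of the gene on GRCm38.p6, on the plus strand, and no GENCODE M21 exon lies in either. Tnnt2 has a second RefSeq start with a window at chr1:135836739-135836988, which overlaps a Tnnt2 exon and is not printed. It held 1 E-box, no MCAT core and no GATA core. The Tnnt2 window shown is chr1:135836084-135836333 and the Tnnc1 window is chr14:31208062-31208311. Capitals mark the core of the MCAT motif, CATTCC on either strand, which TEAD factors bind in many muscle genes.
Tnnt2: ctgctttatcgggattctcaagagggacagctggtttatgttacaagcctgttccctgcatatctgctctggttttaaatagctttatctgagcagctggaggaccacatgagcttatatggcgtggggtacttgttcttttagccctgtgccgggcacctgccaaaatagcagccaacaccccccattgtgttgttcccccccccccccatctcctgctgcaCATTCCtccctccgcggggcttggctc
Tnnc1: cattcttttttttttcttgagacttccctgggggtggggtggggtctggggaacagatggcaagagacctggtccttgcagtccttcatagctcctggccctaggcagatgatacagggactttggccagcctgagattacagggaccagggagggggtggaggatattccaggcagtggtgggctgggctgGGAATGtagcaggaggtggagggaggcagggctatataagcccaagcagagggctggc

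Matches in the windows shown do not overlap each other. The MCAT core lay 27 to 22 bases before the start in Tnnt2 and, on the other strand, 58 to 53 bases before the start in Tnnc1. It was in 12.6% of the 32851 windows of the same length in the RefSeq table. Of the 8 troponin genes, 6 had a window in that table, 8 windows in all, and among these Tnnt2 and Tnnc1 were the 2 with this core. Tnni2 and Tnnt3 were not matched. The Tnnt2 window shown also held 4 E-boxes (CANNTG, in 66.2% of windows) and 1 GATA core (AGATAA, in 9.99%, here on the other strand). The TATA core TATAAA, in 12.4% of windows, was found in the Tnnt1 window, 30 to 25 bases before the start. Neither sequence shown held these exact letters. Variants were not searched, and the Tnnc1 window shown holds the letters TATATAAG near its end. For the hypoxia response element core only the form ACGTG was searched. Those letters, in 16.6% of windows, were not in any troponin window. The related form GCGTG was not searched, and its letters stand in the Tnnt2 window shown. E-box letters can contain ACGTG, as in a CACGTG. Such matches describe letters only, and a motif that is not found says nothing on the factor.

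Among the 3 troponin T genes, Tnnt2 was far higher in OIR and the other 2 stood close to their control levels. Tnnt2, the cardiac troponin T (ENSMUSG00000026414, chromosome 1, 135836354 to 135852260 on mm10), had 10 reads in the control library and 568 in the OIR library. Its level in FPKM, reads scaled by gene length and library size, was 0.503 in the control and 22.1 in OIR. The single OIR value lay far above the single control value. The ratio of read shares, OIR to control, was 43.9, with a 95% counting interval of 23.7 to 92.0. On the scale of log2(FPKM + 1) the difference was 3.94, which ranked 5 from the top among the genes compared, those that reached an FPKM of 1 in at least 1 library. On this scale low genes appear to differ less than by ratio. The authors' deposited table marks Tnnt2 as up, with a log2 fold change of 5.32 and an adjusted p-value of 6.87e-06 for 1 library against 1 library. The authors' deposited table gives an adjusted p-value of 0.99995 for each of the other 6 troponin genes it tests.

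Tnnt1, the slow skeletal troponin T (ENSMUSG00000064179, chromosome 7, 4504570 to 4516382), had 217 reads in the control and 265 in OIR. That was 19.5 and 18.4 FPKM, and the ratio of read shares was 0.943 (0.785 to 1.13). Tnnt3, the fast skeletal troponin T (ENSMUSG00000061723, chromosome 7, 142498836 to 142516009), had 366 and 489 reads. Its levels were 26.8 and 27.6 FPKM and its ratio 1.03 (0.899 to 1.18). Both intervals included 1 and lay below that of Tnnt2. Their differences of -0.08 and 0.04 depend in sign on the scaling. Tnnt1 stood at 0.01 after rescaling to TPM, and Tnnt3 at -0.09 with the authors' scaling factors and at -0.07 after centring on the median of all genes compared.

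The makeup of troponin T RNA therefore differed between the libraries. On the FPKM scale Tnnt2 made up 1.08% of the summed level of the 3 troponin T genes in the control and 32.4% in OIR. Tnnt3 made up 57.3% and 40.6%, and Tnnt1 41.7% and 27.0%. These shares depend on the gene length used, and with the deposited gene lengths in place of those implied by FPKM the share of Tnnt2 was 0.549% in the control and 19.5% in OIR. The summed level of troponin T was 46.8 FPKM in the control and 68.1 in OIR.

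**Figure D1:**
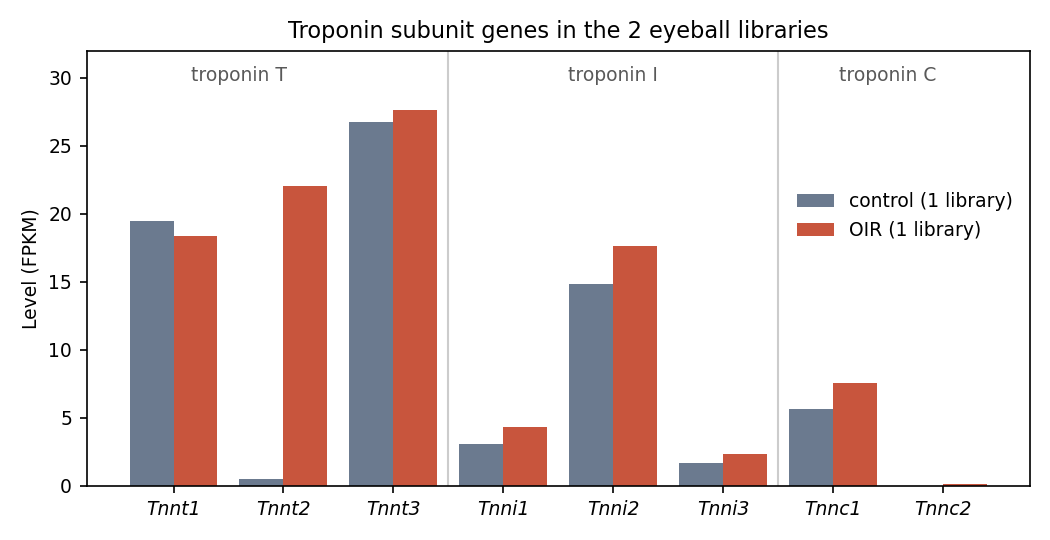
Level of each troponin gene in FPKM in the control library (grey) and the OIR library (red), 1 library each, grouped by subunit. Tnnt2 stands at 0.503 and 22.1 FPKM, while the paired bars of the other genes are of similar height.

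The 3 troponin I genes were all slightly higher in OIR, with counting intervals that included a ratio of 1. Tnni1, the slow skeletal form that the embryonic heart also uses (ENSMUSG00000026418, chromosome 1, 135779434 to 135810989), had 47 reads in the control and 85 in OIR. Its levels were 3.10 and 4.33 FPKM and its ratio 1.40 (0.967 to 2.04). Tnni2, the fast skeletal form (ENSMUSG00000031097, chromosome 7, 142441808 to 142444410), had 170 reads in the control and 261 in OIR. Its levels were 14.9 and 17.6 FPKM and its ratio 1.19 (0.974 to 1.45). Tnni3, the inhibitory subunit of the adult heart (ENSMUSG00000035458, chromosome 7, 4518305 to 4524229), had only 16 and 29 reads. Its levels were 1.66 and 2.32 FPKM and its ratio 1.40 (0.736 to 2.76). A difference of Tnni3 was not detectable at this depth. The upper bound for this second cardiac gene lay below the lower bound for Tnnt2. Within troponin I the makeup was similar in both libraries, with Tnni2 at 75.8% of the summed FPKM in the control and 72.6% in OIR, and Tnni3 at 8.46% and 9.57%.

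Of the 2 troponin C genes only Tnnc1 could be measured. Tnnc1 (ENSMUSG00000091898, chromosome 14, 31208312 to 31211729) had 58 reads in the control and 101 in OIR, or 5.63 and 7.57 FPKM, and a ratio of 1.35 (0.964 to 1.89). The interval included 1. Tnnc2, the fast skeletal calcium sensor (ENSMUSG00000017300, chromosome 2, 164777161 to 164779967), had 0 reads in the control and 1 in OIR. Both counts were under the 3 reads that a count of 0 allows, which correspond to 0.383 FPKM in the control and 0.296 in OIR, so no ratio is given. Its fast skeletal partners Tnni2 and Tnnt3 had at least 170 reads in each library. In GENCODE M21, 74.0% of the exonic bases of Tnnc2 are also exonic bases of Ube2c, a ubiquitin-conjugating enzyme gene on the other strand, which had 29 and 48 reads. No source used here says whether reads were counted by strand, and the part of this overlap in the low count was not tested. Of the other members only Tnni3 shared exonic bases with another gene, 4.17% with Dnaaf3 on the same strand. Tnnc1 lies within the span of Nisch on the opposite strand without sharing exonic bases.

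**Figure D2:**
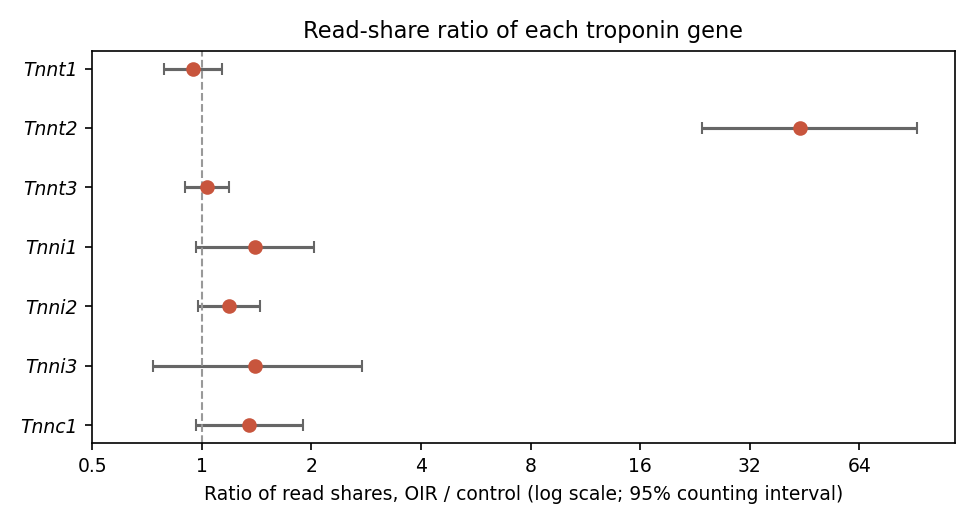
Ratio of read shares, OIR to control, for the 7 troponin genes compared, on a log axis. Bars are exact 95% counting intervals; Tnnt2 stands at 43.9 and the 6 other intervals include 1.

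In all, 7 of the 8 genes reached an FPKM of 1 in at least 1 library and were compared, and Tnnc2 did not. Tnnt2 passed this filter only through the OIR library. Of the 7 genes, 1 was at least 2-fold higher in OIR, where 3.07% of the 15883 genes compared were, and none was at least 2-fold lower, where 0.718% were. Because the set was chosen from this contrast, nothing is read from these shares. The counting interval of the ratio lay above 1 for 1 of the 7 genes, against 36.7% of all genes compared, and below 1 for none, against 14.7%. The median difference was 0.32 over the 7 genes and 0.28 over the 6 without Tnnt2, beside 0.11 over all genes compared. The 6 differences without Tnnt2 ran from -0.08 to 0.38. Reads summed over all 8 genes were 884 in the control and 1799 in OIR, a ratio of 1.57 (1.45 to 1.71). Without Tnnt2 the sums were 874 and 1231, a ratio of 1.09 (0.997 to 1.19) whose interval included 1.

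By level, the order of the genes in the control library was Tnnt3, Tnnt1, Tnni2, Tnnc1, Tnni1, Tnni3, Tnnt2 and Tnnc2. In OIR, Tnnt2 stood second, behind Tnnt3, and the rest kept that order. Within the control each step was larger than counting error except the last, from Tnnt2 to Tnnc2. In OIR the step from Tnnt1 to Tnni2, a ratio of FPKM of 1.04 (0.877 to 1.24), was within counting error. The place of Tnnt2 in OIR depends on the length used. The deposited FPKM values imply a transcript length of 1263 bases for Tnnt2, while the deposited gene length is 3330 bases. With the deposited gene lengths Tnnt2 stood at 8.37 in OIR, ranked 4, and at 0.191 in the control. The ratio of read shares does not use length.

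By muscle type, the 2 cardiac genes Tnnt2 and Tnni3 together made up 3.00% of the summed troponin FPKM in the control and 24.4% in OIR. The 3 fast skeletal genes made up 57.8% and 45.3%, and the 2 slow skeletal genes 31.4% and 22.7%. With the deposited gene lengths the cardiac share was 2.40% in the control and 14.7% in OIR. In FPKM, however, the slow skeletal sum was 22.6 in the control and 22.7 in OIR, and the fast skeletal sum 41.6 and 45.4. The skeletal genes thus made up a smaller share in OIR while their summed levels were not lower.

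Troponin I and T genes lie in pairs, and the pairs were compared for position. Tnni1 and Tnnt2 are 25.4 kb apart on chromosome 1, Tnni3 and Tnnt1 1.92 kb apart on chromosome 7, and Tnni2 and Tnnt3 54.4 kb apart further along chromosome 7. In the Tnni1 and Tnnt2 pair, 1 gene differed widely and the other little. For each read of Tnnt2 the control held 4.70 reads of Tnni1, and OIR 0.150. In the other pairs the reads of the I gene per read of the T gene were 0.464 and 0.534 for Tnni2 and Tnnt3, and 0.0737 and 0.109 for Tnni3 and Tnnt1.

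The gene between Tnni1 and Tnnt2 was also far higher in OIR. Lad1, which encodes ladinin, a protein of epithelial basement membranes (chromosome 1, 135818598 to 135833342), ends 3.01 kb before the start of Tnnt2 on the same strand. It had 44 reads in the control and 814 in OIR, a ratio of 14.3 (10.5 to 19.8). Pkp1, the desmosomal plakophilin gene, lies 19.1 kb beyond Tnnt2 on the opposite strand and had 185 and 877 reads, a ratio of 3.66 (3.12 to 4.31). The counting interval of Tnnt2 lay above those of both. On the far side of Tnni1, Phlda3 and Csrp1 had smaller ratios of 1.62 (1.37 to 1.93) and 1.09 (1.01 to 1.17). The high ratios in this region thus lay on Lad1, Tnnt2 and Pkp1, with Tnni1 at 1.40. The gene-level counts do not show where within a gene the reads lie, so transcripts that run from one gene into the next were not tested.

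Around the other troponin genes, most neighbours differed little. Beside Tnni2, the synaptotagmin family gene Syt8 lies 1.41 kb upstream and had a ratio of 2.46 (1.83 to 3.34), while Lsp1 and Prr33, which lie between Tnni2 and Tnnt3 or reach into Tnnt3, had ratios of 1.12 and 1.01. Mrpl23, 16.8 kb beyond Tnnt3, had a ratio of 0.745 (0.653 to 0.849). Beside Tnnt1 and Tnni3, Eps8l1, an actin regulator gene, had 2.29 (1.95 to 2.69), Ppp1r12c 1.16 and Syt5 0.727. Around Tnnc1, Stab1, Nisch, Sema3g, Phf7 and Bap1 had ratios from 1.11 (Bap1) to 1.46 (Stab1). Around Tnnc2, Wfdc3, Dnttip1, Ube2c, Snx21, Acot8, Zswim3 and Zswim1 had ratios from 0.875 (Wfdc3) to 1.28 (Ube2c), and the low-count loci Gm22596 and Gm11457 had 0.944 (0.356 to 2.58) and 2.32 (1.18 to 4.89). Within 50 kb of a troponin gene, 25 other genes reached the FPKM filter. Of these 4 were at least 2-fold higher (Lad1, Pkp1, Syt8 and Eps8l1) and 0 at least 2-fold lower. Of all genes compared, 3.07% were higher and 0.718% lower by this measure. The median difference of the 25 genes was 0.17, beside 0.11 over all genes compared.

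**Figure D3:**
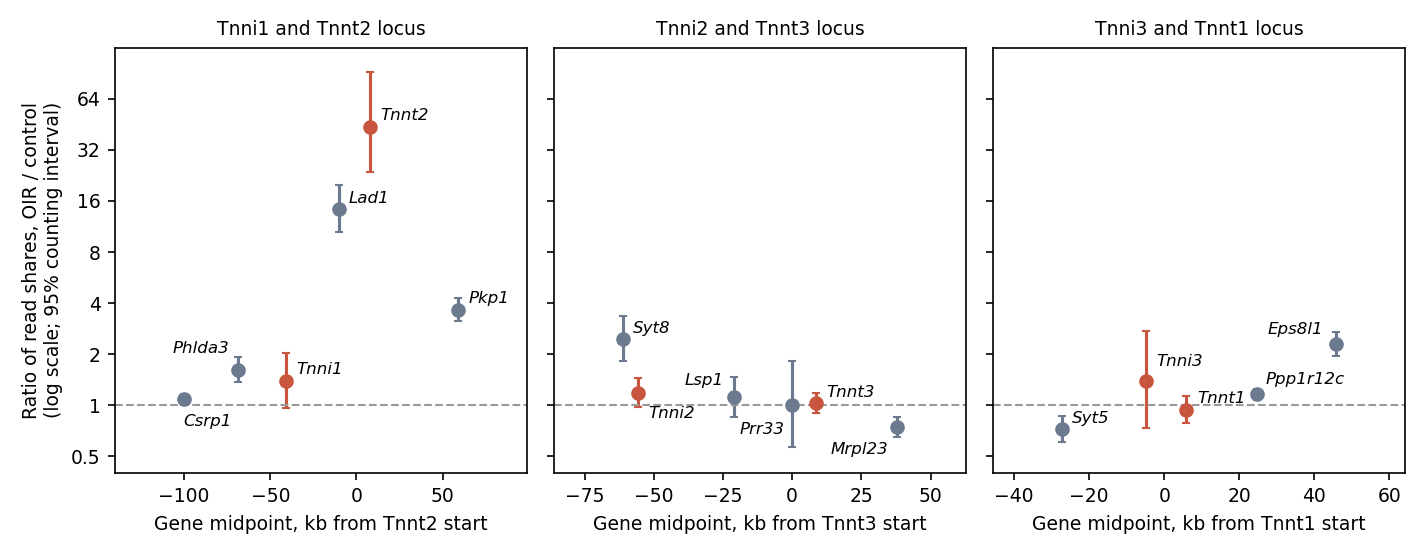
Ratio of read shares, OIR to control (log axis), against the distance of each gene's midpoint from the start of the troponin T gene in kb along its strand, for the 3 troponin I and T pairs. Troponin genes are red, other genes that passed the FPKM filter are grey, and bars are 95% counting intervals; Lad1 at 14.3 and Pkp1 at 3.66 flank Tnnt2.

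Genes of the proteins that troponin works with on the thin filament differed less than Tnnt2. Of 14 thin filament partners, which include actins, tropomyosins, nebulin, leiomodins and tropomodulins, 12 were compared, and none was at least 2-fold higher or lower on the log2(FPKM + 1) scale. Their median difference was 0.36, with 9 above 0 and 3 below. Tpm3, the most abundant of them and also used outside muscle, stood at 97.7 FPKM in the control and 118 in OIR, a ratio of 1.21 (1.14 to 1.29). Actc1, the cardiac actin that forms the filament beneath Tnnt2 in heart, had 58 and 121 reads and a ratio of 1.61 (1.17 to 2.24). By ratio of read shares, in which low levels are not damped by the added 1, Neb and Tmod4 were past 2-fold. Neb, the giant nebulin of skeletal thin filaments, had a ratio of 2.31 (1.79 to 3.00), and Tmod4, a tropomodulin, 2.32 (1.10 to 5.31). Of 24 thick filament and Z disc genes 16 were compared, with none at least 2-fold apart on the log2(FPKM + 1) scale and a median of 0.20. Mylpf, the fast skeletal regulatory light chain and the most abundant of these, stood at 58.3 FPKM in the control and 42.7 in OIR, a ratio of 0.734 (0.636 to 0.847). Ttn, the titin gene, was past 2-fold by ratio of read shares, at 2.82 (2.36 to 3.40) from 153 and 559 reads. Genes named here and in the lists that follow for passing 2-fold by ratio only were chosen after their values were seen.

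Genes that release and take up the calcium to which troponin responds had a median difference of 0.15 over 14 of 18 genes compared. Of these, 2 were at least 2-fold higher and none lower, beside 3.07% and 0.718% of all genes compared. Atp2a1, the calcium pump of fast skeletal muscle, had 167 reads in the control and 499 in OIR, a ratio of 2.31 (1.93 to 2.77). Stac3, needed to couple excitation to calcium release in skeletal muscle, had 37 and 116 reads and a ratio of 2.42 (1.66 to 3.61). Sln, sarcolipin, which restrains the calcium pump, was past 2-fold by ratio only, at 2.24 (1.33 to 3.93). Atp2a2, the most abundant of the list and the pump of heart and many other cells, had a ratio of 1.14 (1.09 to 1.19). The calmodulin genes, relatives of troponin C that bind calcium in all cells, went in both directions. Of 5 such genes 2 were above 0 and 3 below, none was at least 2-fold apart, and the median was -0.36. Calm3, the most abundant, stood at 659 FPKM in the control library against 512 in the OIR library. The largest difference was that of Calml3, named after its values were seen, with a ratio of 1.75 (1.65 to 1.85).

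Transcription factors of muscle genes had a median of 0.26 over 9 of 22 genes compared. At least 2-fold higher was 1 and lower none, beside 3.07% and 0.718% of all genes compared. Tead3, of the TEAD family that binds the MCAT motif, had 384 reads in the control and 1186 in OIR, a ratio of 2.39 (2.12 to 2.68). Of the same family, Tead1 had 1.34 (1.21 to 1.48) and Tead2 1.01 (0.850 to 1.20). Tead4, below the FPKM filter, had 1.12 (0.612 to 2.09). A link of any TEAD gene to the level of Tnnt2 was not tested. Mef2d, the most abundant factor of the list, had a ratio of 1.66 (1.60 to 1.72). Gata4, a factor of the heart, had 0 reads in the control and 5 in OIR. The counting interval of its ratio reached down to 0.708 and so included 1.

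Genes of the cardiac list that could be compared were less than 2-fold apart. Of 17 cardiac genes, a list that leaves out the troponins, 7 were compared, and the median difference was 0.00. The heart factors Nkx2-5 and Hand2, named for being at 0, were not detected in either library. The list summed to 18.1 FPKM in the control library and 22.2 in the OIR library. Ryr2 held 869 of the 1205 reads of the list in the control and 1471 of 1930 in OIR. The listed genes are not all limited to heart, so the median and these sums do not give a level of heart muscle RNA. Myh6, the alpha cardiac myosin heavy chain, fell below the FPKM filter and was picked out after its values were seen. It had 2 reads in the control and 24 in OIR, a ratio of 9.27 (2.30 to 80.9). Myl7 and Nppa, atrial genes also below the filter and chosen in the same way, had 2 and 7 reads and 3 and 2 reads.

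Skeletal muscle markers were present in both libraries, at a sum of 167 FPKM in the control library and 176 in the OIR library. Summed reads, in which long genes weigh more, were 2958 in the control and 5536 in OIR, a ratio of 1.45 (1.38 to 1.51). Of 19 genes 14 were compared, and the median was 0.26. At least 2-fold higher were 3 and lower none, beside 3.07% and 0.718% of all genes compared. The 3 were Atp2a1 and the myosin heavy chains Myh1 and Myh3, the latter an embryonic form, with ratios of 3.05 (2.57 to 3.64) and 2.65 (2.27 to 3.11). A further myosin heavy chain, Myh2, was past 2-fold by ratio only, at 2.84 (2.19 to 3.72). Below the FPKM filter, and picked out after their values were seen, Ryr1 had 2.05 (1.58 to 2.69) and Myh8 1.92 (1.25 to 3.01). The intervals of Myh13, Myod1 and Myog, also below the filter, included 1. Smooth muscle markers, led by Acta2 with a ratio of 0.811 (0.766 to 0.858), had a median of 0.21 over 10 genes, none of them 2-fold apart. All of these ratios lay below the counting interval of Tnnt2.

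Markers of other tissues differed between the libraries beside Tnnt2. Of all genes compared, 3.07% were at least 2-fold higher and 0.718% at least 2-fold lower. These lists were chosen with earlier results of these data known, so their counts are a description. Of 13 markers of corneal and conjunctival epithelium, 10 were at least 2-fold higher, none lower, with a median of 1.34 and a sum of 502 FPKM in the control library and 1463 in the OIR library. None of the 13 was at 0. By difference of log2(FPKM + 1) the highest 5 were Dsp, Krt5, Aldh3a1, Pkp1 and Krt15. Dsp, desmoplakin, had a ratio of read shares of 7.13 (6.32 to 8.08), and the other 4 had ratios from 2.63 (Krt15) to 3.66 (Pkp1). Krt14 and Trp63 were past 2-fold by ratio only, at 2.05 (1.82 to 2.31) and 2.66 (2.01 to 3.55). All ratios of this list lay below those of Lad1 and Tnnt2. Of 11 genes listed as reactive glia, 8 were at least 2-fold higher and none lower, with a median of 1.69. Their summed FPKM was 504 in the control and 988 in OIR, and none was at 0. Which cells made the RNA of these genes was not tested, so the list name does not give their source. Edn2, endothelin 2, had 2 and 1081 reads and a ratio of 418 (115 to 3452), and Bcl3 26.8 (15.2 to 52.4), whose interval overlapped that of Tnnt2. Fgf2, Serpina3n and Socs3, the next by difference of log2(FPKM + 1), had ratios of 12.2, 8.34 and 6.86, and Vim, the most abundant, 1.14. Lif, past 2-fold by ratio only, had 7.14 (3.44 to 17.2). Of 6 erythrocyte genes the 4 compared (Hba-a1, Hbb-bs, Hbb-bt and Alas2) were all at least 2-fold higher, with summed FPKM of 445 and 1298. All 7 lens genes compared were below 0, with a median of -0.48, none of them 2-fold apart, and Cryaa had a ratio of 0.719. The lens fibre gene Lim2 had 0 reads in both libraries, while the 8 lens genes summed to 1542625 reads in the control and 1419320 in OIR. The part of the genes of the epithelial, reactive glia or erythrocyte lists in the level of Tnnt2 was not tested.

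**Figure D4:**
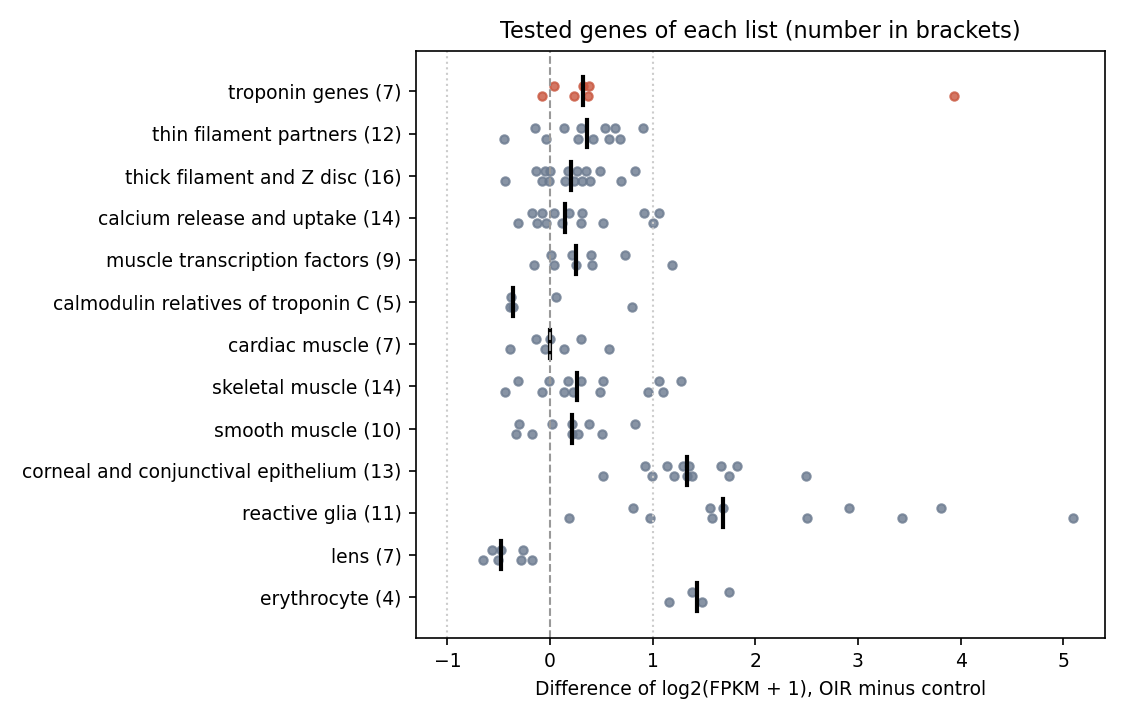
Difference of log2(FPKM + 1), OIR minus control, for each compared gene of the troponin set (red) and of 12 lists (grey), with the median of each as a black bar, 0 dashed and 2-fold differences dotted. Tnnt2 at 3.94 stands apart from the other troponin genes, and the medians of the muscle lists lie between 0.00 and 0.36.

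With 2 libraries the pattern of a gene is the single ratio between them, so likeness to a troponin gene means only a near ratio. Among 13547 genes with a symbol and at least 100 reads over both libraries, those nearest to Tnnt3, the troponin gene with the most reads, were Arrb2, Cyhr1, Pcbp3, Polr2m and Ccdc126, all at 1.03. Those nearest to Tnnt2, looked up after its values were seen, were Gm23935 at 51.4 (42.3 to 62.9), Gm13821 at 33.2, CT010467.1 at 31.4, Bcl3 at 26.8 and Ecel1, an endopeptidase-like gene of neurons, at 26.3 (8.74 to 129). The 5 nearest to Tnnt2 lay 0.23 to 0.74 away on the log2 scale, and the 5 nearest to Tnnt3 within 0.00017.

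Gene counts summed to 15741235 reads for the control and 20378793 for OIR. Each group is 1 library, so no difference above has a replicate check, and every interval covers counting error alone. No molecular identifiers are described, so reads may repeat a molecule. With the authors' scaling factors all log2 ratios would be shifted by -0.14.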

How the data were processed

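RNA from mouse eyeballs was measured in 1 control and 1 OIR library. The build mm10 and the tools TopHat2 2.0.12, Bowtie2 2.2.3 and HTSeq 0.6.1 are named, per the submitters' processing notes, with order, annotation release and strand setting not given in the sources used here. Per the file headers, the deposited table holds read counts, FPKM values, counts the authors scaled by 1 factor per library (a scaled signal, written as 0 below 1), and the authors' log2 fold change, p-value and gene length. After 5 broken lines were dropped, 47644 genes remained. In each of the 22320 genes counted in both, count and FPKM implied the same length within 0.1%. Symbols came from the table, or from GENCODE M21 by Ensembl identifier.

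Genes whose FPKM reached 1 in at least 1 library were compared on the scale log2(FPKM + 1), as OIR minus control, and called 2-fold apart at 1 or -1. With 1 library per group no p-value was computed. Ratios of read shares carry exact conditional 95% intervals (Clopper-Pearson, scipy 1.17.1), tested on simulated Poisson counts. That test covered well-counted genes only, so control counts as low as that of Tnnt2 were not in it. The members and lists were chosen with earlier results of these data known. The named genes are the 8 members, per list the genes at least 2-fold apart (at most 5) and the most abundant, the genes within 50 kb, and the 5 nearest ratios to the troponin gene with the most reads. Promoter windows are from RefSeq (GRCm38.p6).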

Additional observations from a re-analysis of the deposited data

How the results depend on the processing

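Across 10 alternatives, and an 11th chosen after seeing the data that uses the deposited gene length, the number of troponin genes past the fold threshold stayed at 1 higher and 0 lower. The difference of Tnnt2 ran from 2.98 with the deposited gene length to 5.43 with a pseudocount of 0.01, and was 5.20 with a pseudocount of 0.1. The other compared troponin genes stayed between -0.21 and 0.48. Without the filter Tnnc2 entered at 0.14, from 1 read. Counts over all genes moved more. Genes at least 2-fold higher numbered 924 and 998 with pseudocounts of 0.1 and 0.01, 251 with an FPKM filter of 5 and 734 after rescaling to TPM, against 487. Genes lower numbered 254 and 273 with these pseudocounts, 27 with the filter of 5 and 30 with CPM, against 114. At 1.5-fold there were 1447 higher and 409 lower, and at 4-fold 55 and 8. No paired analysis was possible because each group is 1 library. The control count of 10 reads limits the precision of the Tnnt2 ratio.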
